A study of Mus musculus with 8 samples.

Results

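The transcripts described here belong to 31 genes that mark the nerve cells and glia of the gut wall. The genes were chosen by symbol, and every probe set annotated with 1 of these symbols and no other was taken, which gave 61 of the 45037 probe sets tested and 31 of 18193 named genes. They were measured on single Affymetrix arrays in 4 male Pdx1flox/flox;VilCre mice (knockout) and 4 male Pdx1flox/flox mice (control), all 6 months old and on a diet with 4.5% fat. Every mouse carried the floxed Pdx1 alleles, and the knockouts alone carried Cre, under a villin 1 promoter fragment of 12.4 kb that is active in the gut epithelium, so an effect of Cre itself and of the loss of Pdx1 cannot be told apart. The labels call each mouse a brother from the litter and do not say how many litters there were. The tissue was the 5 cm of small intestine next to the pylorus, taken as a mixture of cell types, and in such samples fewer cells of a type and less RNA per cell cannot be told apart. The comparison of knockout with control asks whether transcripts of the nerve plexuses, which lie outside the epithelium, differed when Pdx1 was deleted in the epithelium.

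The enteric nervous system arises from neural crest cells that migrate along the gut and need the receptor Ret and the transcription factor Sox10 to colonise it. Its neurons sit in a plexus between the muscle layers and another in the submucosa; excitatory motor neurons use acetylcholine, and inhibitory ones use nitric oxide and the peptide Vip. Enteric glia surround them and are recognised by S100b, Gfap and Sox10. Several of the genes are also active in epithelial endocrine cells and pancreatic islets, since those cells too store peptides in granules.

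No transcript of enteric neurons or glia was shown to differ between knockout and control intestine. Of the 31 genes, 0 passed the limma test at an adjusted p under 0.05, while 0.066% of all named genes did; of their 61 probe sets 0 passed, beside 0.0422% of all probe sets. The median log2 difference, knockout minus control, was -0.038, against 0.0046 over all named genes. For 30 of the 31 genes the 95% interval of the difference lay within 0.5 log2 units of 0 on either side, and galanin (Gal) was the exception. This held for the brightest probe set of each gene. Dimmer probe sets of L1cam and Syt1 had intervals from -0.57 to 0.77 and from -0.04 to 0.67. Moreover, 21 of the 31 genes were no brighter than the brightest of 19 genes of unrelated tissues. In dim genes a difference may be understated, so a narrow interval there does not bound the change of the transcript. A single mouse, knockout 3, gave the lowest knockout value for 16 of the 31 genes. On the probe sets that stood for the genes, Chat, which encodes the enzyme that makes acetylcholine, was the only 1 of the 31 whose knockout and control values did not overlap, with the knockouts lower, as in 2.07% of all named genes.

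The 4 sequences below lie before the start sites of 4 members. These genes are Chat and Slc18a3, which share a locus, Vip, the brightest member, and Gal, with the largest difference. Each sequence is the 250 bases before the start site in RefSeq's annotation of GRCm38.p6, written 5′ to 3′ on the gene's strand. The windows are chr14:32465910-32466159 (minus strand) for Chat, chr14:32464851-32465100 (minus strand) for Slc18a3, chr10:5638968-5639217 (plus strand) for Vip and chr19:3414545-3414794 (minus strand) for Gal. Capitals mark TATAAA, the GC box GGGCGG, and TGACG, the core of the cAMP response element TGACGTCA, on either strand.
Chat: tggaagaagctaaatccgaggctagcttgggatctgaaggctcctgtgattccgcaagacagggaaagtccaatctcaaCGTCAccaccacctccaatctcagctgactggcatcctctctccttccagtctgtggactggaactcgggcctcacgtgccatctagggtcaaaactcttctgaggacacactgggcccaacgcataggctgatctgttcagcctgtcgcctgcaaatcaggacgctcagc
Slc18a3: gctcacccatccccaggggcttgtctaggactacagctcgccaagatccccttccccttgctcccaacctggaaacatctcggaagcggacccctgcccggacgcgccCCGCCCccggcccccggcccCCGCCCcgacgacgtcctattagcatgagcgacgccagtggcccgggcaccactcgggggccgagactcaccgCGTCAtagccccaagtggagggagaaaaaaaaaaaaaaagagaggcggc
Vip: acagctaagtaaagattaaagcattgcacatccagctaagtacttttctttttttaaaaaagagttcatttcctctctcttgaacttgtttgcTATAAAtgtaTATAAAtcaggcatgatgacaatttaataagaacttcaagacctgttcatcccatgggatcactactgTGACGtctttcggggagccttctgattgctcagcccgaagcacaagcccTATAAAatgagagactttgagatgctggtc
Gal: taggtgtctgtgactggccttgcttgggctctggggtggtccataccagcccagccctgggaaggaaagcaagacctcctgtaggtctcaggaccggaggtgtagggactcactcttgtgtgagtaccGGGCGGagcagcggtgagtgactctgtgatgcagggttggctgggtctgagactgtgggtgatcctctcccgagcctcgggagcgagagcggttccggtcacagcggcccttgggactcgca
The start sites of Chat and Slc18a3 lie 1059 bases apart on the same strand, and the vesicular transporter gene is known to sit inside the first intron of Chat. TGACG, which every full TGACGTCA also holds, was found in the Chat, Slc18a3 and Vip windows, and 17.8% of the 32851 windows of the same length in the table hold it. The full TGACGTCA was in 0 of the 4 and in 1.55% of all windows. The Vip window had 3 copies of TATAAA, the last beginning 30 bases before the start site; 12.4% of all windows hold it. GGGCGG was found in the Gal window and in 2 places in the Slc18a3 window, and 32.7% of all windows hold it. These are matches of letters only.

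How bright the members were sets how firmly each can be read. Where a gene had several probe sets, the one with the highest mean over the 8 mice stood for it, and levels are log2 values as deposited. As a yardstick of background, 19 measured genes of the retina, lens, germ cells and enamel had mean values between 3.23 and 6.32. Of the members, 10 were brighter than all of these and 21 were not: in order of brightness Vip, L1cam, Calb2, Dbh, Sox10, Npy, Gal, Nos1, Stmn2 and Hand2 lay above. That count rests on a single germ cell gene, Prm1 at 6.32: without it the brightest of the yardstick was at 5.92 and 16 members lay above, and without the 3 brightest it was at 4.57 and 27 members lay above. The 4 members below even that level were Slc18a3, Phox2a, Nefl and Nefm. Brightness depends on the probes as well as on the transcript, so it does not rank the genes by abundance. The neurofilament genes Nefl and Nefm, at means of 3.77 and 3.40, were near the bottom of the scale, and so was Phox2a at 3.94, so a difference in them could be understated. Among the genes above the yardstick were Vip, Nos1 and Calb2 of neurons and Sox10 of glia.

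**Figure D1:**
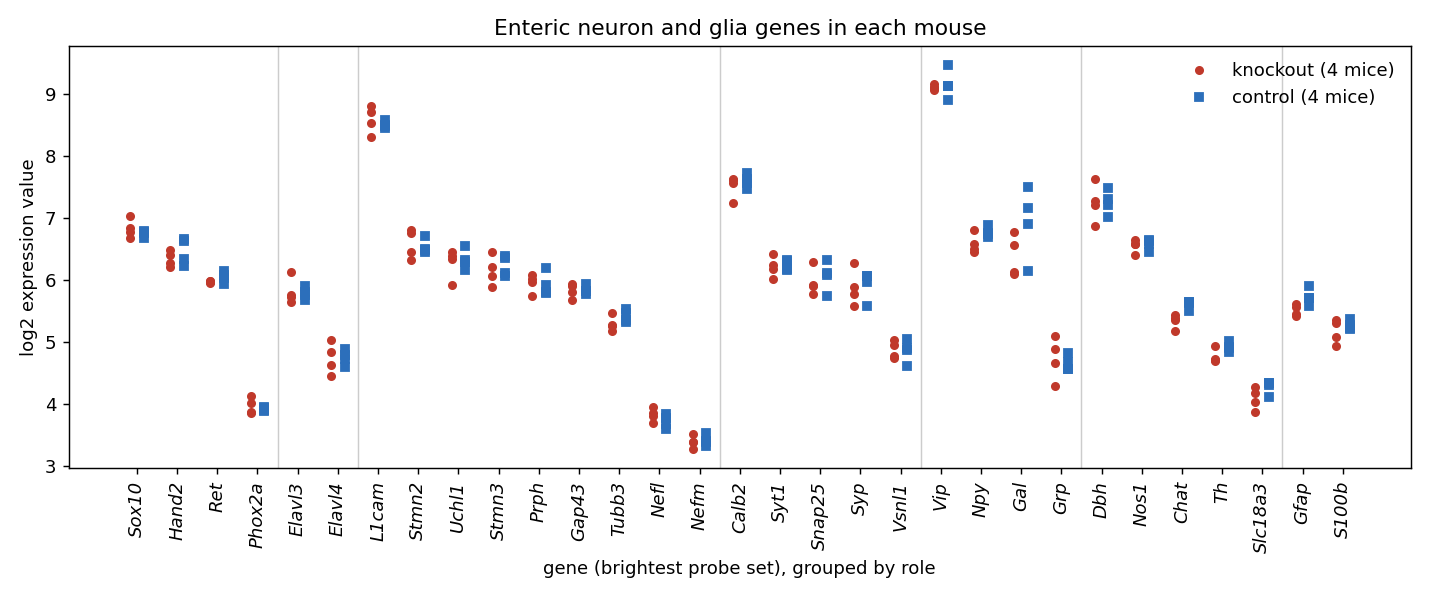
Log2 expression value (y axis) of each of the 31 genes (x axis, grouped by role), with a point for each knockout mouse on the left and each control mouse on the right of a gene's position. The groups overlap for every gene except Chat, and Gal has the widest spread between mice.

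Among the receptors and transcription factors of neural crest cells, no gene passed the test. Ret, the receptor for glial cell line-derived neurotrophic factor, read 5.97, 5.98, 5.98 and 5.94 in the knockouts, against 5.93, 6.14, 6.03 and 6.07 in the controls. All 4 knockout values lay inside the control range, with a difference of -0.08 (SE 0.0655; adjusted p = 0.845 in limma). This depended on the probe set: the second one of Ret, nearly as bright, had -0.24 (unadjusted p = 0.0533). With both averaged, Ret read 5.87, 5.97, 5.79 and 5.94 in the knockouts, against 6.06, 5.98, 6.02 and 6.13 in the controls. The averaged knockout values lay below all control values by a narrow gap, and the difference was -0.16 (unadjusted p = 0.0312, adjusted p = 0.635 in limma). Sox10, a factor of neural crest cells and glia, read 6.76, 6.84, 6.67 and 7.02 in the knockouts, against 6.75, 6.78, 6.77 and 6.66 in the controls. The highest and nearly the lowest of the 8 values were both knockouts. Its difference was 0.08, while its second brightest probe set had -0.07 and its dimmest -0.18 (unadjusted p = 0.415 and 0.0412 in limma). On the dimmest probe set the knockout values, from 4.84 to 4.99, lay below the control values, from 4.99 to 5.29, though the highest knockout and the lowest control were almost equal. With the 3 probe sets averaged, the Sox10 difference was -0.06 (unadjusted p = 0.429 in limma). Hand2, a factor needed for enteric neuron differentiation, had a difference of -0.13, and Phox2a, a homeodomain factor of autonomic neurons, one of 0.05.

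The neuron-specific RNA binding proteins HuC and HuD, encoded by Elavl3 and Elavl4, are standard stains of enteric neuron cell bodies. Elavl4 read 4.61, 4.83, 4.44 and 5.03 in the knockouts, against 4.72, 4.79, 4.59 and 4.89 in the controls. Both the lowest and the highest value came from the knockout group. The differences were -0.02 for Elavl4 and 0.03 for Elavl3, both smaller than the spread between mice of the same group.

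The cytoskeletal, growth and adhesion genes of neurons were spread on both sides of 0, with 4 of 9 above and 5 below and a median difference of -0.01. Uchl1, the ubiquitin hydrolase PGP9.5 used as a general neuron marker, read 6.39, 6.33, 5.91 and 6.44 in the knockouts, against 6.31, 6.16, 6.29 and 6.54 in the controls. A single knockout mouse was low, and the other 3 lay within the control range. Stmn2, a tubulin-binding stathmin of axons, showed the same mouse at the bottom: it read 6.81, 6.44, 6.32 and 6.76 in the knockouts, against 6.50, 6.48, 6.44 and 6.71 in the controls. L1cam, an axonal adhesion molecule, had the second brightest probe set of the list, with knockout values from 8.29 to 8.80 around a median of 8.62 and control values from 8.45 to 8.57 around a median of 8.49. Here the knockout range enclosed the control range. The dimmer probe set of L1cam, at a mean of 4.90, had a difference of 0.10. Its pooled within-group SD was 0.551, with knockout 3 at 5.87 and knockout 4 at 4.04. The other differences were -0.08 for Stmn3, a relative of Stmn2, -0.12 for Tubb3, neuronal beta tubulin, 0.03 for Prph, the intermediate filament peripherin (with -0.18 and an unadjusted p of 0.0449 on another of its 4 probe sets), and -0.01 for Gap43, a growth cone protein. Nefl and Nefm had 0.10 and -0.02.

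Genes of synaptic vesicles and calcium sensing had differences between -0.09 and 0.02. Snap25, a membrane protein of the fusion machinery, read 6.29, 5.91, 5.77 and 5.90 in the knockouts, against 6.10, 5.74, 6.07 and 6.31 in the controls. The knockout range lay inside the control range. Calb2, calretinin, a calcium-binding protein of excitatory neurons, read 7.61, 7.56, 7.23 and 7.63 in the knockouts, against 7.47, 7.56, 7.62 and 7.72 in the controls. Without the third knockout mouse its difference was 0.01, compared with -0.08 in all 8. Syt1, the calcium sensor of vesicle release, had -0.03 on its brightest probe set, 0.32 on the second (unadjusted p = 0.0763) and -0.23 on the third, where the groups did not overlap (unadjusted p = 0.0130), so its probe sets did not share a direction. Syp, a vesicle membrane protein, had -0.04, and Vsnl1, a neuronal calcium sensor, had 0.02.

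Of the genes for transmitter synthesis and storage, 5 of 5 had a difference below 0, beside 48.4% of all named genes. Their median was -0.15, and 0 passed the adjusted threshold. Dbh and Nos1, at -0.0022 and -0.03, were close to 0 and changed sign in at least 1 other setting. Chat, which makes acetylcholine in cholinergic neurons and also in tuft cells of the epithelium, read 5.43, 5.17, 5.37 and 5.36 in the knockouts, against 5.62, 5.63, 5.50 and 5.63 in the controls. Every knockout value was below every control value. The difference was -0.26 with a 95% interval from -0.43 to -0.10, and it did not pass over the whole table (unadjusted p = 0.00526, adjusted p = 0.561 in limma). Among all named genes 2.07% had knockout values wholly below the control values, beside 1 of 31 here; 2.28% had them wholly above, beside 0 of 31 here. Slc18a3, which loads acetylcholine into vesicles, read 4.17, 3.86, 4.27 and 4.02 in the knockouts, against 4.34, 4.33, 4.31 and 4.11 in the controls. Control 4 lay among the knockouts, so the groups overlapped, with a difference of -0.19 (adjusted p = 0.732 in limma) on a probe set no brighter than the background yardstick. Other genes of acetylcholine handling, not among the 31, did not share this direction and size. The choline transporter Slc5a7 had 0.05 and acetylcholinesterase, Ache, had -0.03 (unadjusted p = 0.572 and 0.712 in limma). Their mean levels were 3.74 and 5.09, also within the yardstick. The Chat probe set, at a mean of 5.47, lay within the yardstick as well.

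The catecholamine enzymes and nitric oxide synthase had differences nearer to 0. Th, the first enzyme of catecholamine synthesis, read 4.71, 4.72, 4.68 and 4.93 in the knockouts, against 5.02, 4.90, 4.91 and 4.83 in the controls. Knockout 4 overlapped with the controls, and the difference was -0.15 (adjusted p = 0.732). Dbh, which turns dopamine into noradrenaline, had a difference of -0.0022 with knockout values from 6.87 to 7.63 and control values from 7.01 to 7.47. Nos1, the neuronal nitric oxide synthase of inhibitory motor neurons, read 6.58, 6.39, 6.58 and 6.64 in the knockouts, against 6.65, 6.63, 6.45 and 6.57 in the controls. Its difference of -0.03 had an interval from -0.20 to 0.14.

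The neuropeptides included the brightest gene of the list, Vip, and Gal, which varied most between mice on the probe sets that stood for the genes. Vip, vasoactive intestinal peptide of inhibitory and secretomotor neurons, read 9.10, 9.16, 9.07 and 9.09 in the knockouts, against 9.13, 9.13, 8.90 and 9.46 in the controls. The knockout values lay close together and inside the control range, and the difference was -0.05 (95% interval from -0.28 to 0.19). Gal, the peptide galanin, read 6.13, 6.10, 6.55 and 6.76 in the knockouts, against 7.49, 6.90, 6.15 and 7.15 in the controls. Controls 1, 2 and 4 lay above all knockouts and control 3 lay among them. The difference was -0.54 with a 95% interval from -1.11 to 0.03 (unadjusted p = 0.0621, adjusted p = 0.720 in limma), and its pooled within-group SD of 0.464 was the highest of the 31. Without control 3 the Gal difference was -0.80 (unadjusted p = 0.00185, adjusted p = 0.504 in limma), and without control 1 it was -0.35 (unadjusted p = 0.185). Npy, neuropeptide Y, had -0.18, with knockout values from 6.44 to 6.81 and control values from 6.68 to 6.89, and Grp, gastrin-releasing peptide, had 0.07.

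Transcripts of the pancreas, which lies against this stretch of gut, also varied between the mice. To compare lists by mouse, the log2 values of each gene were centred on their mean over all 8 mice and then averaged over the list, which gives a score. For 14 measured of 16 listed exocrine pancreas genes the score was -0.63, -0.34, 0.54 and -0.31 in the knockouts, against 0.62, 0.36, -1.24 and 1.02 in the controls. Controls 1, 2 and 4 were high and control 3 low, as in Gal, while among the knockouts the highest pancreas score was in knockout 3 and the highest Gal value in knockout 4. The mean level of these pancreas genes ranged from 11.9 to 13.1 in the knockouts and from 11.3 to 13.6 in the controls. The score of 7 measured of 10 listed islet genes ranged from -0.50 to 0.55 in the knockouts and from -0.77 to 1.68 in the controls. Control 4 had the highest islet score. The part of pancreas tissue in the Gal difference was not tested.

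Glial transcripts had lower means in the knockout for S100b and Gfap, but not for the brightest probe set of Sox10. Gfap, the intermediate filament of glia, read 5.41, 5.44, 5.61 and 5.56 in the knockouts, against 5.89, 5.71, 5.57 and 5.71 in the controls. Knockout 3 and control 3 overlapped. The difference was -0.21 with a 95% interval from -0.40 to -0.02 (unadjusted p = 0.0303, adjusted p = 0.676 in limma). The unadjusted p was under 0.05 in 10 of 15 other settings; it was 0.0845 without knockout 1, 0.0764 without knockout 2, 0.0938 without control 1 and 0.0519 without control 2. The brightest of its 3 probe sets, used here, had a mean of 5.61, within the background yardstick. The second brightest, at a mean of 4.65, had -0.10 (unadjusted p = 0.209 in limma). The dimmest had -0.19 (unadjusted p = 0.0327), at a mean of 3.40, near the bottom of the scale. S100b, a calcium-binding protein of glia, read 5.07, 5.30, 4.93 and 5.35 in the knockouts, against 5.26, 5.22, 5.21 and 5.36 in the controls, a difference of -0.10. Knockouts 1 and 3 lay below the controls and the remaining knockouts lay within their range.

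**Figure D2:**
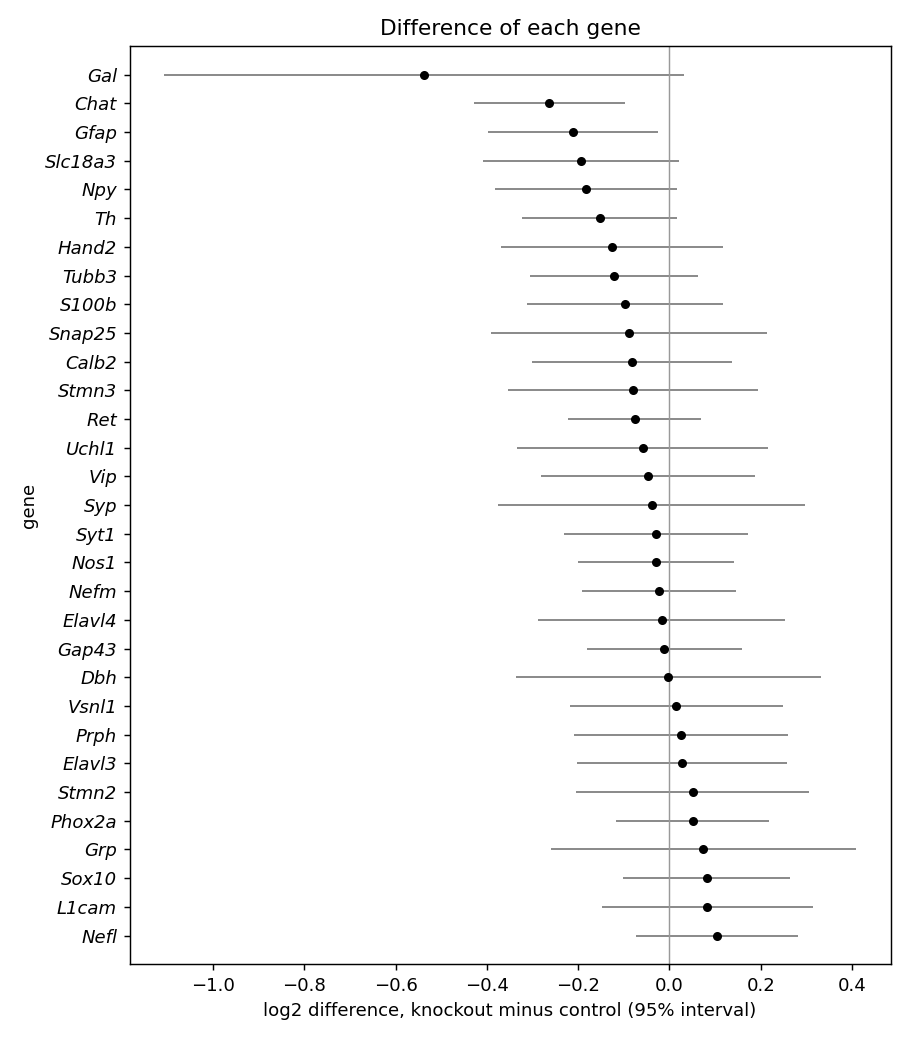
Log2 difference, knockout minus control (x axis), of each of the 31 genes (y axis, sorted), with points for limma's estimate over 4 mice a group and lines for the 95% interval. The interval includes 0 for 29 of 31 genes, the exceptions being Chat and Gfap, and is widest for Gal.

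Counted together, 22 of the 31 genes had a difference below 0 and 9 above, that is 71.0% below against 48.4% of all named genes. At an unadjusted p under 0.05 there were 2 lower genes, Chat and Gfap, and 0 higher ones, beside 3.2% of all named genes lower and 3.63% higher. On all 61 probe sets, 6 had an unadjusted p under 0.05, all lower, beside 3.62% of all probe sets lower and 3.5% higher; they belonged to Gfap (2), Chat, Sox10, Syt1 and Prph. Of the 61, 3 had knockout values wholly below the control values, from Chat, Sox10 and Syt1, beside 2.33% of all probe sets, and 0 had them wholly above, beside 2.1%. Of the 18 genes with several probe sets, 8 had probe sets on both sides of 0. Since neuron transcripts come from the same cells in a sample, the genes are not independent of each other, and the counts carry no test.

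The number of genes below 0 depended on knockout 3. That mouse had the lowest of the 4 knockout values for 16 of the 31 genes, while over all named genes it was the lowest for 32.3%. Knockout 4 was the highest for 13 of 31, against 28.7% over all named genes. Without knockout 3, 16 of 31 genes were below 0 and 15 above, with a median difference of -0.0014. Leaving out a mouse with many of the lowest values raises the knockout means by construction, so this fall is no test of that mouse. The number below 0 was 24 without knockout 1, 20 without knockout 2 and 24 without knockout 4. The score of the 31 genes was -0.01, -0.06, -0.11 and 0.05 in the knockouts, against 0.05, 0.01, -0.02 and 0.08 in the controls, so the groups overlapped. Knockout 3 was lowest and control 4 highest.

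**Figure D3:**
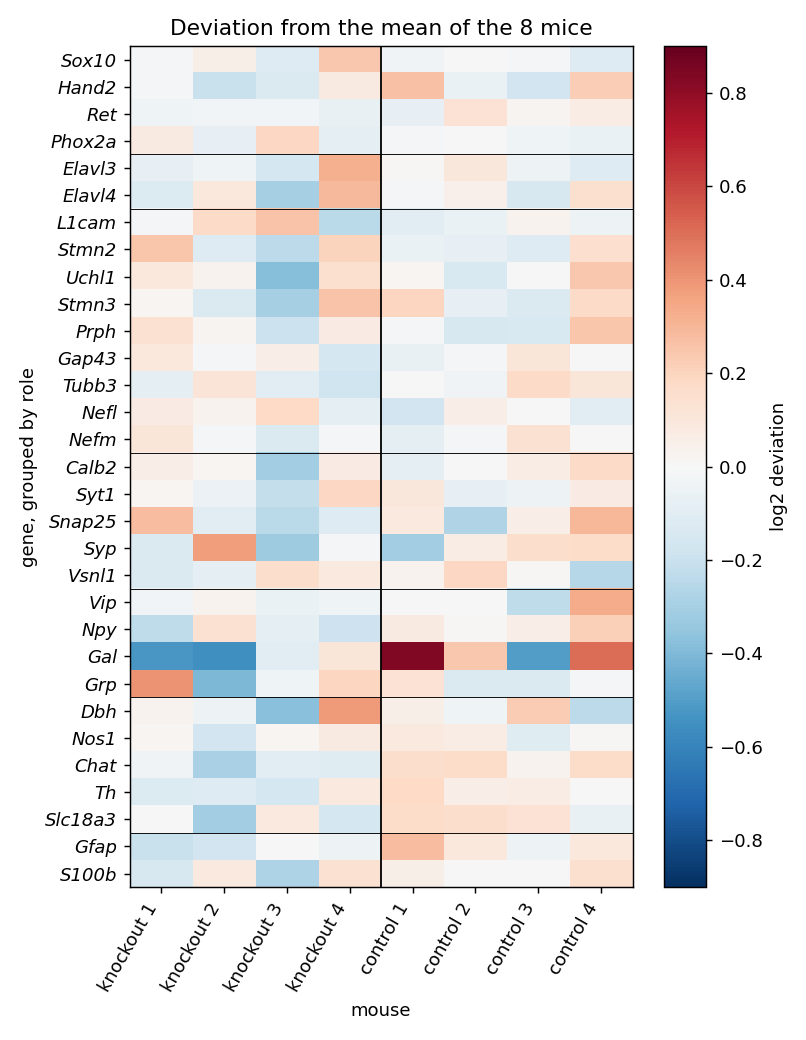
Deviation of each mouse (x axis, knockouts left of the line) from a gene's mean over the 8 mice, in log2 units by colour, for the 31 genes (y axis, grouped by role). Blue cells gather in the column of knockout 3, among them Uchl1, Calb2, Stmn3 and Dbh, and the darkest cell is Gal in control 1.

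The same mice stood apart in genes of the epithelial endocrine cells. All 13 listed enteroendocrine genes were measured, and their score was -0.02, -0.09, -0.59 and -0.01 in the knockouts, against 0.14, -0.03, 0.09 and 0.52 in the controls. Knockout 3 had the lowest knockout value in 10 of the 13 and control 4 the highest control value in 11. Control 4 also had the highest islet score, 1.68, while knockouts 1, 3 and 4 had islet scores between -0.50 and -0.42. The part of islet tissue in the enteroendocrine values was not tested. In the enteroendocrine list 1 gene passed the test, Gip, the hormone of K cells, at -2.64 (adjusted p = 2.01e-04 in limma). Of the 13, 11 were below 0, beside 48.4% of all named genes. At an unadjusted p under 0.05 there were 3, all lower, beside 3.2% of all named genes lower. Besides Gip these were Sst at -0.61 (unadjusted p = 0.00617) and Pyy at -0.50 (unadjusted p = 0.0424). The groups did not overlap for 2 of the 13, Gip and Sst, both lower, beside 2.07% of all named genes. Smooth muscle, which surrounds the plexuses, gave other values: 15 of 15 measured genes had a difference above 0, beside 9393 of 18193 named genes. The median was 0.21, and 0 passed the adjusted threshold. At an unadjusted p under 0.05 there were 4, all higher, beside 3.63% of all named genes higher. The smooth muscle score was 0.24, 0.02, 0.25 and -0.08 in the knockouts, against -0.19, -0.07, -0.04 and -0.12 in the controls. Knockout 3 was lowest for neuron genes and highest for muscle genes. Knockout 1 was almost as high for muscle genes, and its score of the 31 neuron and glia genes was -0.01. The part of tissue composition in the neuron values was not tested.

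**Figure D4:**
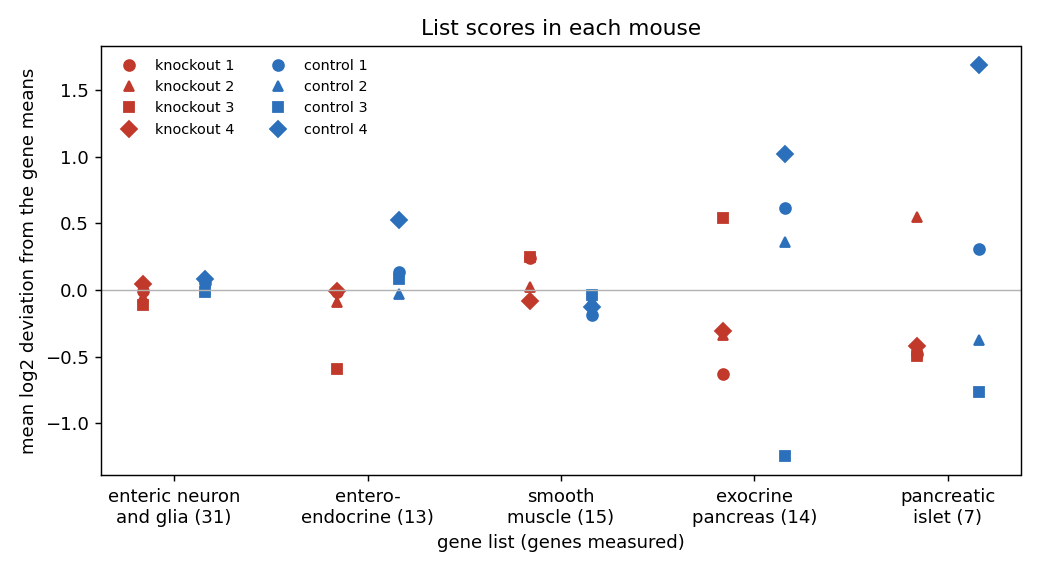
List score (y axis, mean log2 deviation from the gene means) of each knockout mouse (left) and control mouse (right) for 5 gene lists (x axis, with the number of genes). The 31 neuron and glia genes vary between -0.11 and 0.08, much less than the exocrine pancreas and islet lists.

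Mice of the same group differed somewhat more in these genes than in the median gene. The median pooled within-group SD was 0.151 over the 31 genes and 0.126 over all named genes, and 20 of the 31 lay above the value over all named genes. It ranged from 0.063 for Ret to 0.464 for Gal. For 8 of the 31 genes, 25.8%, the difference was larger than this SD, against 24.4% of all named genes.

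Further genes of the same system, not among the 31, were counted in the same way. Over all named genes 48.4% were below 0. An unadjusted p under 0.05 was found in 3.2% that were lower and 3.63% that were higher. Of 22 listed genes of enteric nervous system signalling and development, 19 were measured, 0 passed the limma test, 0 had an unadjusted p under 0.05, and 12 were below 0, with a median of -0.02. This list holds ligands, receptors and transcription factors that act in neural crest cells and their targets in the gut. Gfra1, the co-receptor for glial cell line-derived neurotrophic factor, had the smallest p, with a difference of -0.16 (unadjusted p = 0.0569). Hand1, a relative of Hand2, had -0.14, and Artn, a Ret ligand, had -0.08. Of 36 further neuron genes 33 were measured, 0 passed, 1 had an unadjusted p under 0.05, and 18 were below 0, with a median of -0.02. Penk, the enkephalin precursor, had -0.27 (unadjusted p = 0.0378), Syn1, a vesicle phosphoprotein, had -0.15, and Slc18a2, the vesicular monoamine transporter, had -0.14. The score of these 33 genes again had knockout 3 at the bottom, at -0.15, against -0.05 for the lowest control.

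Of 12 further glial and Schwann cell genes 10 were measured, 0 passed, 1 had an unadjusted p under 0.05, and 7 were above 0. Of all 18193 named genes 9393 were above 0, and 3.63% were higher at that p. Pmp22, a myelin protein that is also found in epithelia, had the largest difference of all these lists' nerve genes. It read 10.38, 9.56, 9.69 and 10.01 in the knockouts, against 9.38, 8.12, 8.91 and 8.83 in the controls. The groups did not overlap, and the difference of 1.10 (SE 0.25) did not pass over the whole table (unadjusted p = 0.00121, adjusted p = 0.423 in limma). Knockout values lay wholly above the control values in 2.28% of all named genes. Gpm6b, a relative of the myelin proteolipid, had -0.14, and Entpd2, an ectonucleotidase of enteric glia, had 0.09.

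Array medians lay between 5.23 and 5.27 and correlations between pairs of arrays between 0.990 and 0.996. The log2 difference between 3′ and 5′ control probes, a sign of RNA quality, was from 0.32 to 0.46 in the knockouts and from 0.43 to 0.61 in the controls for beta actin, and from -0.09 to -0.06 in the knockouts and from -0.08 to 0.01 in the controls for Gapdh. Control 4, with the highest score of the 31 genes, had the highest value of both, and the part of RNA quality in the results was not tested. Pdx1 was lower in every knockout than in any control, at 5.93 ± 0.25 in the knockouts and 8.52 ± 0.36 in the controls on its brighter probe set (SD, n = 4 each; adjusted p = 4.16e-04 in limma), while Vil1 had a difference of 0.19 with knockout values wholly above the control values (unadjusted p = 0.0221, adjusted p = 0.660). Of the remaining cell type lists, the interstitial cells of Cajal had 2 of 2 measured genes above 0, enterocytes 8 of 9 and adipocytes 4 of 6, with 0 past the threshold in each. Of the 9 enterocyte genes, 4 had knockout values wholly above the control values and 1 wholly below, and 3 had an unadjusted p under 0.05 with a higher and 1 with a lower knockout mean. Over all named genes 2.28% lay wholly above and 2.07% wholly below, while 3.63% were higher and 3.2% lower at that p. Exocrine pancreas genes were below 0 in 14 of 14 cases and islet genes in 5 of 7, also with 0 past it. Of the genes used as a background yardstick, 12 of 19 were below 0, beside 48.4% of all named genes.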

How the data were processed

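The authors deposited a table of log2 expression values from Affymetrix arrays hybridised with biotin-labelled cRNA, per the labels' protocols. The submitters' processing notes list Partek 6.4 without a role, and how background, summarisation and normalization were done is not stated there. That the values are log2 was read from their range, 2.55 to 14.83. With no detection calls, a difference in a dim transcript may be understated; precision is limited by having 4 arrays a group. Of 45101 probe sets 64 array controls were left out. In the platform annotation 34945 probe sets had 1 symbol, 932 several and 9160 none.

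Groups came from the sample titles. Every probe set was fitted for knockout minus control by limma 3.58.1 (lmFit, then eBayes; R 4.3.3), two-sided, with Benjamini-Hochberg adjustment over 45037 probe sets and a threshold of 0.05; the code was tested on simulated data. Nothing beyond the word litter says how the mice were related. The genes named were all 31, further probe sets of theirs with an unadjusted p under 0.05 or a clear opposite sign, up to 3 genes with the smallest p in each further list, genes past the threshold, Pdx1 and Vil1. The second probe sets of Ret, Gfap, Sox10 and L1cam, as well as Slc5a7, Ache, Prm1 and the shortened background yardstick, were added after their values were seen. The members and lists were chosen with earlier results of these data known. Alternatives were a replicate block, repeated quantile normalization, median centring, a minimum mean of 5, a trended and robust prior, averaging the probe sets of a gene, and leaving mice out. Promoter sequences came from RefSeq's GRCm38.p6 table, which held 22 of the 31 genes. Figures were drawn with matplotlib 3.10.9.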

Additional observations from a re-analysis of the deposited data

Results flagged for a closer look

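In 3 cases a mouse lay far from the other 3 of its group, by the ratio of its gap to the range of the group. The Calb2 value of knockout 3 was 7.23, while the other knockouts lay between 7.56 and 7.63. The Chat value of control 3 was 5.50, while the other controls lay between 5.62 and 5.63, and all 4 stayed above the knockouts. The Slc18a3 value of control 4 was 4.11, while the other controls lay between 4.31 and 4.34, and the overlap of the groups in Slc18a3 rested on this mouse. The ratio was examined in 62 groups, of 31 genes in knockouts and controls, and chance passes its limit in about 1 in 20 groups.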

How the results depend on the processing

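In all 15 alternative settings 0 members passed the adjusted threshold, and the lowest adjusted p of any member was 0.504. The number of members with an unadjusted p under 0.05, 2 in the reported fit, ran from 1 to 4 with a mouse left out. The number with groups that did not overlap, 1 in the reported fit, was 2 when the probe sets of each gene were averaged, Chat and Ret, and 2 without control 2 and knockout 3, and ran from 1 to 3 with 1 mouse left out; smaller groups overlap less often by construction. The number below 0 was 22 of 31 in the fit of all mice, 16 without knockout 3, 16 without control 2 and knockout 3 together, and from 16 to 24 over all mice left out singly. Chat kept a difference below 0 in every setting, between -0.30 and -0.21, with an unadjusted p between 0.00368 and 0.0208, and Gal one between -0.80 and -0.35. The unadjusted p of Gfap was between 0.0116 and 0.0938 and was not under 0.05 in 5 of the 15 settings. In at least 1 setting 18 of the 31 genes changed sign, the largest of them with a reported size of 0.08, and 13 did not. With the replicate block, 24 probe sets of the whole table passed, against 19 without it, and 0 members passed in either; same-numbered mice did not deviate together (correlations from -0.184 to 0.0764, with 0 of 4 knockouts closest to the control of their own number), so the numbers were not taken as pairs. With the block the members with an unadjusted p under 0.05 were Chat (0.0165) and Gal (0.0487), while Gfap had 0.0683. Signal over background limits the dim genes: 21 of the 31 were no brighter than the brightest transcript of an unrelated tissue, and 4 no brighter than the fourth brightest.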
